A study of Mus musculus with 20 samples.

Results

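The lipid droplet coat and lipolysis genes described here in mouse liver are 10: the CIDE genes Cidec, Cidea and Cideb, the perilipins Plin2, Plin4 and Plin5, the fat storage-inducing transmembrane genes Fitm1 and Fitm2, the triglyceride lipase Pnpla2 and its inhibitor G0s2. Their probes were matched through the RefSeq transcript in the array's own annotation, and 1 probe of Fitm2 through an older symbol. The gene name in that annotation was an older symbol for 5 of them (Adfp for Plin2, S3-12 for Plin4, 2310076L09Rik for Plin5, 1110028A07Rik for Fitm1 and D930001I22Rik for Fitm2). The 10 genes had 12 probes, of 27573 gene names and 41174 probes on the array. The liver RNA came from 20 male mice aged 28 weeks on a mixed Sv129/C57Bl6J background, 5 in each of 4 groups, with 1 array a mouse. LXR alpha/beta double knockout (KO) mice on Western diet (WD), wild-type (WT) mice on Western diet, KO mice on normal diet (ND) and WT mice on normal diet had been on their diet for 7 weeks. The labels name no Cre driver and no tissue for the knockout. A piece of the large lobe was used, so each value is that of all cells in it.

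A lipid droplet is a core of triglyceride and cholesteryl ester under a single phospholipid layer, on which coat proteins sit. Perilipins cover that layer and control the access of lipases. CIDE proteins gather where droplets touch or where lipid is loaded onto lipoproteins, and in liver Cidea and Cidec are known to be induced in steatosis, while Cideb is known for its part in very low density lipoprotein lipidation. FITM proteins sit in the endoplasmic reticulum and take part in droplet formation. Pnpla2 (adipose triglyceride lipase) starts triglyceride breakdown, Abhd5 activates it and G0s2 inhibits it. LXR alpha and LXR beta are nuclear receptors for oxysterols that act with RXR and drive, among others, the lipogenic factor Srebf1.

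The genes around which the results turn were Cidec, Fitm1 and Plin2. The 250 bases before their annotated starts are shown, 5′ to 3′ along the gene. In the fit reported here Cidec and Fitm1 moved most, in opposite directions, and Plin2 was the 1 gene of the set that differed between the genotypes on normal diet. The sequences are from RefSeq on GRCm38.p6. Capitals mark AGGTCA, a hexamer bound by nuclear receptors, on either strand (TGACCT is the same site on the other strand). Cidec has 2 annotated starts, at chr6:113435761-113436010 and chr6:113434765-113435014 (minus strand). The Fitm1 window is chr14:55575424-55575673 (plus strand) and that of Plin2 is chr4:86670060-86670309 (minus strand).
Cidec, first start: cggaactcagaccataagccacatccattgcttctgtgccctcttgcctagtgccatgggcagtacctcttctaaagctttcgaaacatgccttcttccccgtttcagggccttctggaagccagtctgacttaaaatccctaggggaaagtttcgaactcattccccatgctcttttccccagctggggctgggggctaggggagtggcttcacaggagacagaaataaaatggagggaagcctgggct
Cidec, other start: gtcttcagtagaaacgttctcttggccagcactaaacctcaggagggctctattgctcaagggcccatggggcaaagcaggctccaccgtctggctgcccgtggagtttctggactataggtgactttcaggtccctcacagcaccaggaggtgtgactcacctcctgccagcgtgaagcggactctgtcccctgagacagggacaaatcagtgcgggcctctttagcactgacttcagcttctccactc
Fitm1: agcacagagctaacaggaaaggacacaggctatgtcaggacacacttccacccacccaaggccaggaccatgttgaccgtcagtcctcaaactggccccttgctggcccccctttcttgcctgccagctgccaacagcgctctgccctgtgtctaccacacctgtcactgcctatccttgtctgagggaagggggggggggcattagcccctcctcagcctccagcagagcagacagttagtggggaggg
Plin2: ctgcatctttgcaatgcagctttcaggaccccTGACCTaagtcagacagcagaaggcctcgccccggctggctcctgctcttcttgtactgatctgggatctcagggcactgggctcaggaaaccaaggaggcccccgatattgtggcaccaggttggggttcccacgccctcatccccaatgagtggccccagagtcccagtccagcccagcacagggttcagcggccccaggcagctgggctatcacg
The Plin2 window holds 1 AGGTCA, which begins 218 bases before the start, and the other 3 windows hold none. Over the set, 11 windows of 9 genes were searched, and 2 held AGGTCA, 1 of Plin2 and 1 of Plin5. Of all 32851 promoter windows of this length 14% held it. No window of the set held AGGTCANAGGTCA or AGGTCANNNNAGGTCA, the direct repeats known for PPAR and for LXR with RXR, which 0.0335% and 0.0152% of all windows held on either strand. These are matches of letters in a short window, and an absent match says only that the letters are not there.

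A value below is the array's processed signal as a multiple of the 75th percentile signal of the same array, and a difference is the difference of mean log2 values, given with its SE from limma and with the p adjusted over all genes tested. Such values compare a gene between groups, not one gene with another. All 10 genes passed the filter on dim probes. Of these, 9 were well above background on all 20 arrays, and Fitm1 was so on 17. The 75th percentile signal was 339.7 to 435.1 in KO mice on Western diet, 261.1 to 330.8 in WT mice on Western diet, 223.5 to 323.3 in KO mice on normal diet and 170.3 to 280.0 in WT mice on normal diet, and 53.6% to 67.1% of probes were well above background. In the check of the deleted genes, the log2 difference KO minus WT of Nr1h3 (LXR alpha) was -9.00 on Western diet and -9.05 on normal diet, and that of Nr1h2 (LXR beta) -5.43 and -5.39 (adjusted p up to 1.05e-09), with no overlap between genotypes.

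On Western diet, 7 of the 10 genes differed between KO and WT mice, 3 higher and 4 lower, at an adjusted p under 0.05. Of all genes tested, 57.7% did so (25.0% higher and 32.7% lower), so the share in the set is not far from that of the array. The median difference of the 10 genes was -0.20, against -0.16 over all genes. In KO mice fed Western against normal diet the count was also 7, 3 higher and 4 lower, against 50.4% of all genes (22.6% higher, 27.8% lower), with a median of -0.22, against -0.12 over all genes. On normal diet 1 gene, Plin2, differed between KO and WT mice, against 19.7% of all genes (8.39% lower), and the median was -0.21, against -0.06. In WT mice 1 gene, again Plin2, was lower on Western than on normal diet, against 5.97% of all genes (2.71% lower), and the median was -0.46, against -0.03. The difference between the diet differences of the genotypes (KO minus WT, the interaction) passed the test for 6 genes, 3 higher and 3 lower, against 27.6% of all genes (12.9% higher, 14.7% lower). The genotype and diet comparisons share groups and are therefore not independent of each other.

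**Figure D1:**
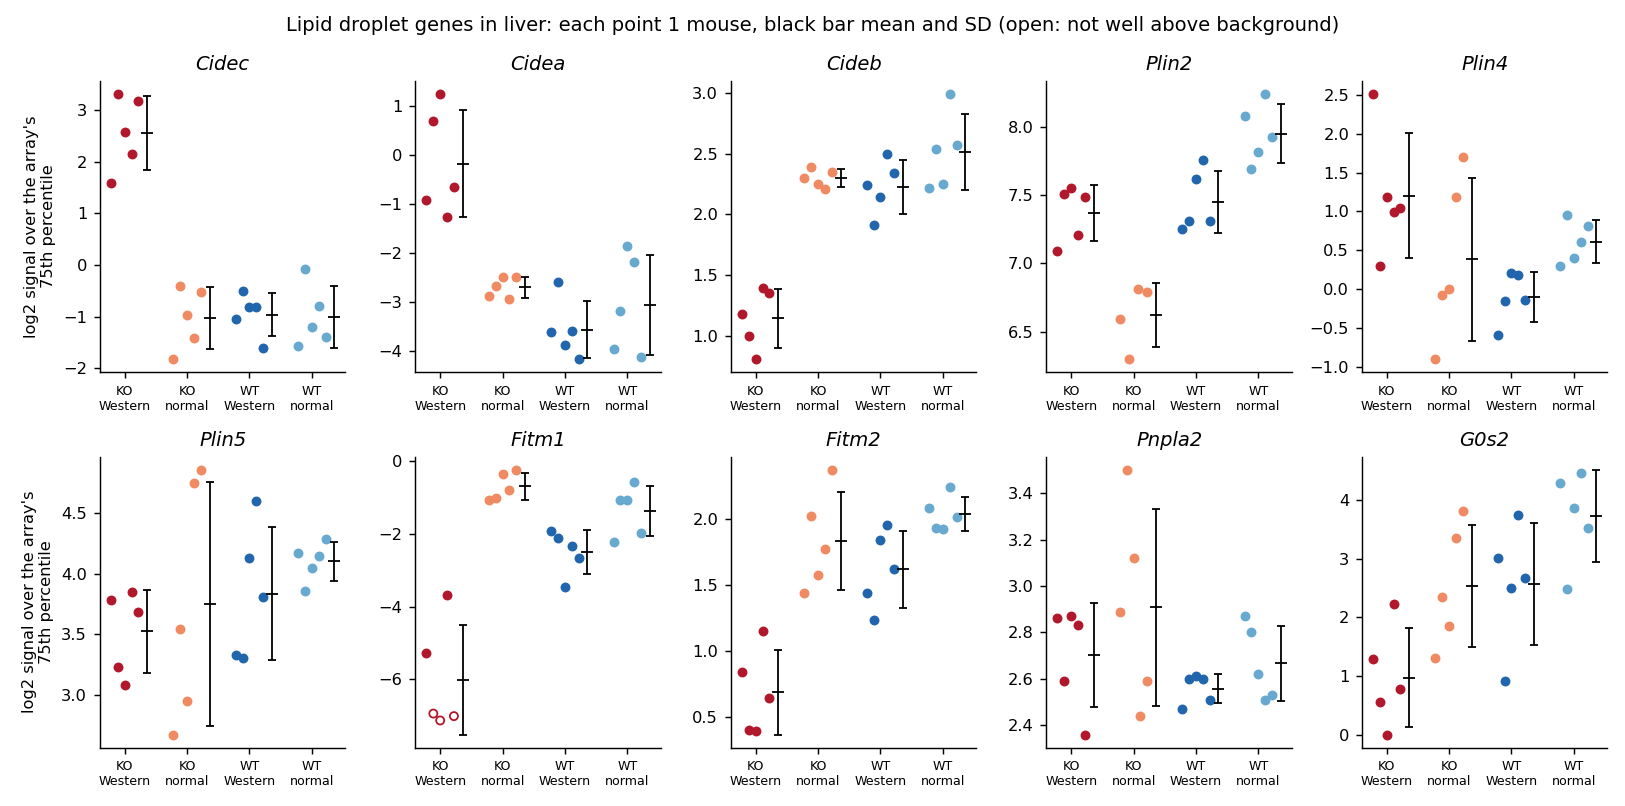
Log2 signal over the 75th percentile of the array (vertical axes, each with its own range) for the 10 genes in KO and WT mice on Western and normal diet. Each point is 1 mouse, the black bar is the mean ± SD, and open points are arrays on which the probe was not well above background. Cidec and Cidea stand above the other 3 groups in KO mice on Western diet, and Cideb, Fitm1 and Fitm2 stand below them there.

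Cidec, the CIDE protein that enlarges droplets by lipid exchange at their contacts, changed most in the upward direction. Its probe lies at chr6:113390476-113390535 of mm8, on the minus strand. Cidec was at 2.98, 9.89, 5.99, 4.47 and 9.04 times the 75th percentile in KO mice on Western diet, against 0.485, 0.701, 0.567, 0.567 and 0.328 in WT mice on Western diet. On normal diet it was at 0.282, 0.75, 0.506, 0.377 and 0.691 in KO mice, against 0.335, 0.950, 0.436, 0.578 and 0.380 in WT mice. Every KO mouse on Western diet lay above every mouse of the other 3 groups, and those 3 groups overlapped. The difference between KO and WT on Western diet was 3.52 ± 0.35 (SE, 11.5-fold, adjusted p = 1.52e-07), and between Western and normal diet in KO it was 3.59 ± 0.35 (12.1-fold, adjusted p = 1.95e-07). In WT mice the diet difference was 0.05 (95% confidence interval -0.70 to 0.79), and on normal diet the genotype difference was -0.03 (-0.77 to 0.72). The diet difference thus differed between the genotypes by 3.55 ± 0.50 (adjusted p = 5.46e-05). Within the slides that held both groups, KO exceeded WT on Western diet by 2.62 to 4.0 on 4 of 4 slides, and Western exceeded normal diet in KO by 3.40 to 3.72 on 5 of 5.

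Cidea, known from brown fat and from fatty liver, rose in the same mice with a wider spread. It was at 0.534, 1.62, 2.36, 0.414 and 0.639 times the 75th percentile in KO mice on Western diet, against 0.0826, 0.166, 0.0690, 0.0838 and 0.0565 in WT mice on Western diet. On normal diet it was at 0.136, 0.157, 0.178, 0.130 and 0.179 in KO mice, against 0.0644, 0.111, 0.278, 0.223 and 0.0574 in WT mice. The KO mice on Western diet were again above all others, by the least margin for mouse 4, and 2 of them were far higher than the other 3. KO exceeded WT on Western diet by 3.38 ± 0.48 (10.4-fold, adjusted p = 9.91e-06), and Western exceeded normal diet in KO by 2.51 ± 0.48 (5.71-fold, adjusted p = 0.000284). In WT mice the diet difference was -0.50 (95% confidence interval -1.52 to 0.51), and the interaction was 3.02 ± 0.68 (adjusted p = 0.00298). With normexp background correction, which compresses dim probes, the genotype difference on Western diet was 1.42 (adjusted p = 0.0169), the diet difference in KO was 1.09 (adjusted p = 0.0757) and the interaction 1.33 (adjusted p = 0.257). In the authors' deposited matrix values the genotype difference was 2.14 (adjusted p = 1.73e-05).

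Cideb, the CIDE gene of the normal liver, went the other way. It was at 2.26, 2.00, 1.75, 2.63 and 2.55 times the 75th percentile in KO mice on Western diet, against 4.73, 3.76, 4.41, 5.67 and 5.08 in WT mice on Western diet. In mice fed normal diet it was at 4.94, 5.23, 4.77, 4.63 and 5.11 in KO mice, against 4.67, 5.80, 4.76, 7.97 and 5.94 in WT mice. The KO mice on Western diet lay below all others, and the other 3 groups overlapped. Cideb was lower in KO than in WT on Western diet, with a difference of -1.08 ± 0.15 (2.12-fold lower, adjusted p = 5.99e-06), with -1.15 to -0.75 within 4 slides. It was also lower on Western than on normal diet in KO, with a difference of -1.16 ± 0.15 (adjusted p = 3.99e-06), and the diet difference in WT was -0.29 (95% confidence interval -0.60 to 0.02). The interaction was -0.87 ± 0.21 (adjusted p = 0.00474), and with normexp it was -0.56 (adjusted p = 0.468). So within 1 gene family Cidec and Cidea rose and Cideb fell in the same 5 livers, each relative to both of its comparison groups.

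Plin2, the perilipin that coats droplets in most cells and in hepatocytes, was the 1 gene of the set lower in KO than in WT on normal diet. It was at 96.6, 78.9, 112 and 111 times the 75th percentile in KO mice 2 to 5 on normal diet (the spot of mouse 1 was marked as an outlier and left out of the fit), against 270, 206, 226, 303 and 243 in WT mice on normal diet. On Western diet it was at 136, 182, 188, 148 and 179 in KO mice, against 153, 159, 197, 217 and 159 in WT mice. No KO mouse on normal diet overlapped with any other group, the 2 groups on Western diet overlapped with each other, and WT mice on normal diet were the highest, overlapping with 1 WT mouse on Western diet. Before scaling, the signal was 51600 to 66500 in WT and 17800 to 36200 in KO mice on normal diet. On Western diet it was 40700 to 65000 in WT and 53400 to 78000 in KO mice. Apart from KO mice on normal diet, the groups overlapped before scaling, so their order depends on the scaling. No Plin2 spot was marked as saturated. The genotype difference on normal diet was -1.33 ± 0.15 (2.51-fold lower, adjusted p = 1.12e-05), and within 4 slides it was -1.48 to -1.02. On Western diet it was -0.08 ± 0.14 (adjusted p = 0.638, 95% confidence interval -0.39 to 0.22). That value turned to 0.35 with quantile normalization (adjusted p = 0.0307) and to 0.39 in the authors' deposited matrix values (adjusted p = 0.02), so its direction depends on the scaling.

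Plin2 differed between the diets in opposite directions in the genotypes. It was higher on Western than on normal diet in KO by 0.74 ± 0.15 (1.68-fold, adjusted p = 0.000563), with 0.40 to 1.25 on 4 slides. With quantile normalization the rise was 1.32 and in the deposited matrix values 1.44. In WT it was lower on Western diet, with a difference of -0.50 ± 0.14 (adjusted p = 0.0485), with -0.61 to -0.20 on 4 slides. This last call is at the threshold and was lost under 10 of 11 other settings, with the slide as a block among them (-0.42, adjusted p = 0.0853), and without any 1 of 13 of the 20 arrays. The interaction was 1.24 ± 0.21 (adjusted p = 0.000318) and was 1.14 to 1.71 over all settings and left-out arrays.

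Plin4 and Plin5, perilipins known from fat tissue and muscle and from oxidative tissues, varied widely between mice of a group. Plin4 was at 5.71, 1.23, 2.28, 1.98 and 2.06 times the 75th percentile in KO mice on Western diet, against 0.665, 0.897, 1.16, 1.13 and 0.910 in WT mice on Western diet. These 2 groups did not overlap, and KO exceeded WT by 1.30 ± 0.42 (2.47-fold, adjusted p = 0.012). On normal diet Plin4 was at 0.536, 0.944, 0.997, 2.29 and 3.25 in KO mice, against 1.22, 1.94, 1.32, 1.51 and 1.75 in WT mice, and here the WT mice lay within the range of the KO mice. The diet difference was 0.82 ± 0.42 in KO (adjusted p = 0.109) and -0.71 ± 0.42 in WT (adjusted p = 0.369), with an interaction of 1.53 ± 0.59 (adjusted p = 0.0614). The interaction passed the test in the deposited matrix values (1.39, adjusted p = 0.0477) and without KO mouse 2 on Western diet (1.76), KO mouse 4 on normal diet (1.73) or KO mouse 5 on normal diet (1.86). Without that last mouse the diet difference in KO was 1.15 (adjusted p = 0.0197).

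Plin5, which ties droplets to mitochondria, passed the test in none of the 5 comparisons. It was at 13.8, 9.41, 8.47, 14.4 and 12.9 times the 75th percentile in KO mice on Western diet, against 10, 9.84, 17.5, 24.2 and 14.0 in WT mice on Western diet. In mice fed normal diet Plin5 was at 6.37, 11.6, 7.72, 26.8 and 29.0 in KO mice, against 18.0, 14.6, 16.5, 17.8 and 19.6 in WT mice. The KO mice on normal diet included both the 2 lowest and the 2 highest values of all 20, and the 2 groups of each comparison overlapped. The 95% confidence interval of the genotype difference was -1.07 to 0.46 on Western diet and -1.12 to 0.41 on normal diet, and that of the interaction was -1.03 to 1.13. A level in KO that is lower by 1 on the log2 scale thus lies within both genotype intervals, and one that is higher by 1 lies outside them.

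Fitm1, which in mammals is known mainly from skeletal muscle and heart, fell most in the fit reported here. Its probe spans chr14:54529968-54530394 of mm8 on the plus strand. Fitm1 was at 0.0260, 0.00817, 0.00716, 0.0786 and 0.00777 times the 75th percentile in KO mice on Western diet, and only mice 1 and 4 were well above background there. It was at 0.262, 0.232, 0.0910, 0.198 and 0.158 in WT mice on Western diet, 0.480, 0.498, 0.786, 0.580 and 0.846 in KO mice on normal diet and 0.214, 0.476, 0.481, 0.675 and 0.256 in WT mice on normal diet. The KO mice on Western diet were below all others, and the KO mice on normal diet lay at or above the middle of the WT mice. KO was lower than WT on Western diet, with a difference of -3.50 ± 0.54 (adjusted p = 2.16e-05). With each of the 3 dim arrays at the lowest signal well above background of that array, the fold was 5.69. On Western against normal diet in KO the difference was -5.31 ± 0.54 (adjusted p = 2.6e-07), and 20-fold with the 3 dim arrays so set. Within slides, KO minus WT was -5.02 to -0.21 on 4 of 4 slides, and Western minus normal diet in KO was -6.78 to -2.88 on 5 of 5. On slides 1 and 4, where the spot of the KO mouse on Western diet was well above background, KO minus WT was -3.33 and -0.21. The diet difference in WT was -1.12 ± 0.54 (95% confidence interval -2.25 to 0.01) and the genotype difference on normal diet 0.69 (-0.44 to 1.82). The interaction was -4.19 ± 0.76 (adjusted p = 0.000527), which rests on the 3 dim arrays. In a fit with all dim spots at that lowest signal it was -3.20 (adjusted p = 0.000216), and the 2 differences above were -2.51 (adjusted p = 1.66e-05) and -4.32 (adjusted p = 3.86e-08). With normexp the interaction was -1.21 (adjusted p = 0.0584), and in the deposited matrix values -1.55 (adjusted p = 0.000922). KO minus WT on Western diet was -0.91 with normexp and -1.07 in the matrix values. Under these settings that difference was larger for G0s2, at -1.35 and -1.42.

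Fitm2, the form found in most tissues, fell in the same mice by less. It was at 1.79, 1.32, 1.31, 2.22 and 1.55 times the 75th percentile in KO mice on Western diet, against 2.72, 2.35, 3.58, 3.85 and 3.07 in WT mice on Western diet. On normal diet it was at 2.72, 4.06, 2.98, 3.42 and 5.19 in KO mice, against 4.22, 3.80, 3.78, 4.73 and 4.02 in WT mice. No KO mouse on Western diet reached the range of another group. KO was lower than WT on Western diet, with a difference of -0.94 ± 0.18 (1.91-fold lower, adjusted p = 0.000263), and with normexp of -0.68 (adjusted p = 0.0505). Western minus normal diet in KO was -1.16 ± 0.18 (adjusted p = 4.04e-05). A dimmer probe of Fitm2, at chr2:163160149-163160208 of mm8, differed by -0.80 ± 0.23 (adjusted p = 0.00588) and -1.09 ± 0.23 (adjusted p = 0.000706) in these comparisons. The interaction of -0.74 ± 0.26 was just past the threshold (adjusted p = 0.0404). It was lost without any 1 of 13 arrays, with median scaling (-0.79, adjusted p = 0.105), with normexp (-0.47, adjusted p = 0.603), with no filter (-0.74, adjusted p = 0.0683), with the mean of both probes (-0.69, adjusted p = 0.0722) and at the dimmer probe (-0.64, adjusted p = 0.155).

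Pnpla2, the lipase, passed the test in none of the comparisons. It was at 7.26, 6.0, 7.30, 7.11 and 5.14 times the 75th percentile in KO mice on Western diet, against 5.55, 6.05, 6.08, 6.08 and 5.71 in WT mice on Western diet. On normal diet it was at 7.44, 11.4, 8.72, 5.43 and 6.02 in KO mice, against 7.29, 6.97, 6.15, 5.69 and 5.79 in WT mice. All groups overlapped, and the genotype difference on Western diet had a 95% confidence interval of -0.20 to 0.48. The 2 probes of Pnpla2 disagreed in part. At the dimmer one, chr7:141310521-141310580 of mm8, the genotype difference on Western diet was -0.36 ± 0.24 (adjusted p = 0.206), and Western minus normal diet in KO was -0.67 ± 0.24 (adjusted p = 0.0267), against -0.21 ± 0.16 (adjusted p = 0.297) at the brighter one, chr7:141311351-141311410.

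G0s2, the inhibitor of Pnpla2, was lower in KO mice on Western diet with a wide spread. It was at 2.45, 1.47, 1.00, 4.71 and 1.71 times the 75th percentile in KO mice on Western diet, against 8.10, 1.89, 5.67, 13.4 and 6.37 in WT mice on Western diet. Under normal diet it was at 2.49, 5.10, 3.63, 10.2 and 14.1 in KO mice, against 19.6, 5.62, 14.6, 22.1 and 11.6 in WT mice. Neighbouring groups overlapped, and the order of the group means was KO on Western diet, then KO on normal and WT on Western diet together, then WT on normal diet. KO minus WT on Western diet was -1.60 ± 0.56 (3.02-fold lower, adjusted p = 0.0197), and Western minus normal diet in KO was -1.56 ± 0.56 (2.96-fold lower, adjusted p = 0.0253). The differences that did not pass were of like size: -1.19 ± 0.56 between the genotypes on normal diet (adjusted p = 0.145) and -1.16 ± 0.56 between the diets in WT (adjusted p = 0.257), and the interaction was -0.40 ± 0.79. The genotype call was lost without KO mouse 3 (-1.35, adjusted p = 0.0587) or WT mouse 4 (-1.30, adjusted p = 0.0603) on Western diet and with normexp (-1.35, adjusted p = 0.0688). The diet call in KO was lost without KO mouse 2 (-1.46) or 3 (-1.32) on Western diet, without KO mouse 4 (-1.36) or 5 (-1.24) on normal diet and with normexp (-1.20, adjusted p = 0.123).

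**Figure D2:**
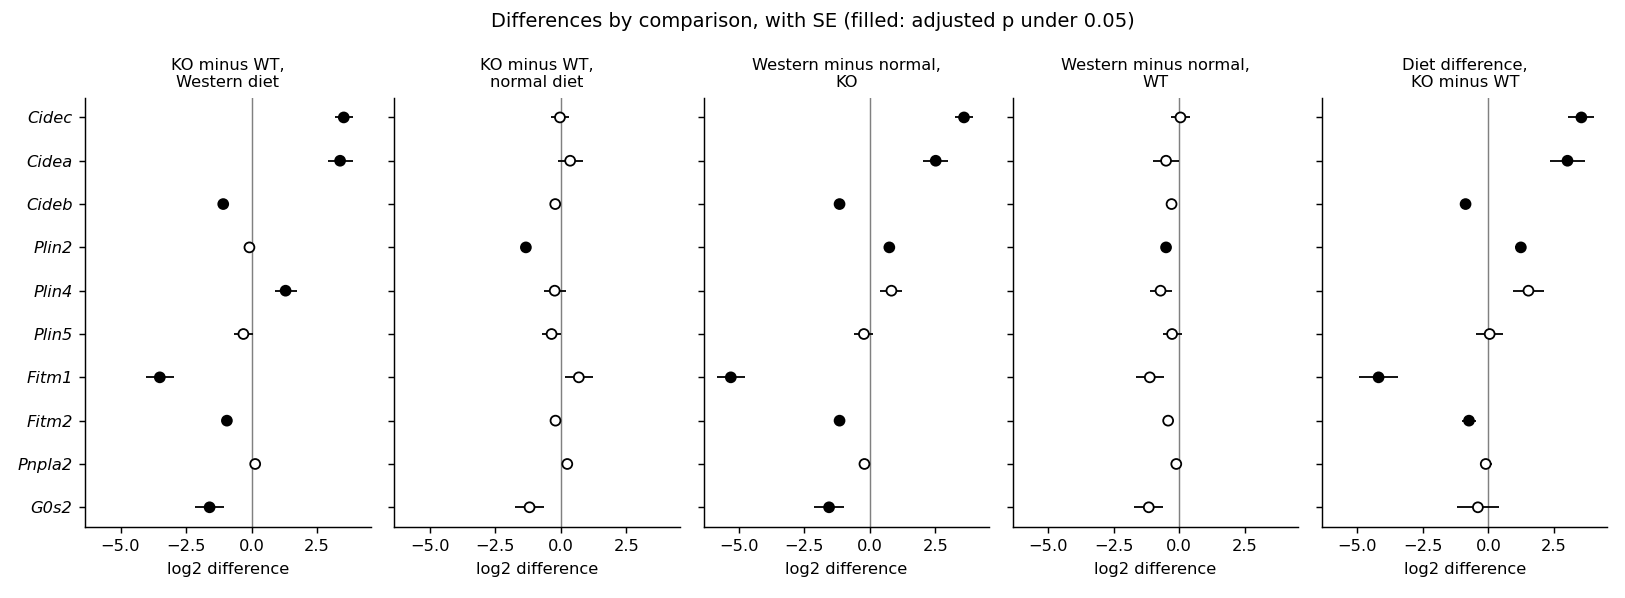
Log2 difference with SE (horizontal axes) of the 10 genes in the 5 comparisons, with filled points at an adjusted p under 0.05. Of the 10 genes, 7 are filled for KO minus WT on Western diet and 7 for Western minus normal diet in KO, against 1 each on normal diet and in WT. Of all genes tested, 57.7%, 50.4%, 19.7% and 5.97% were called in these comparisons, in that order.

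**Figure D3:**
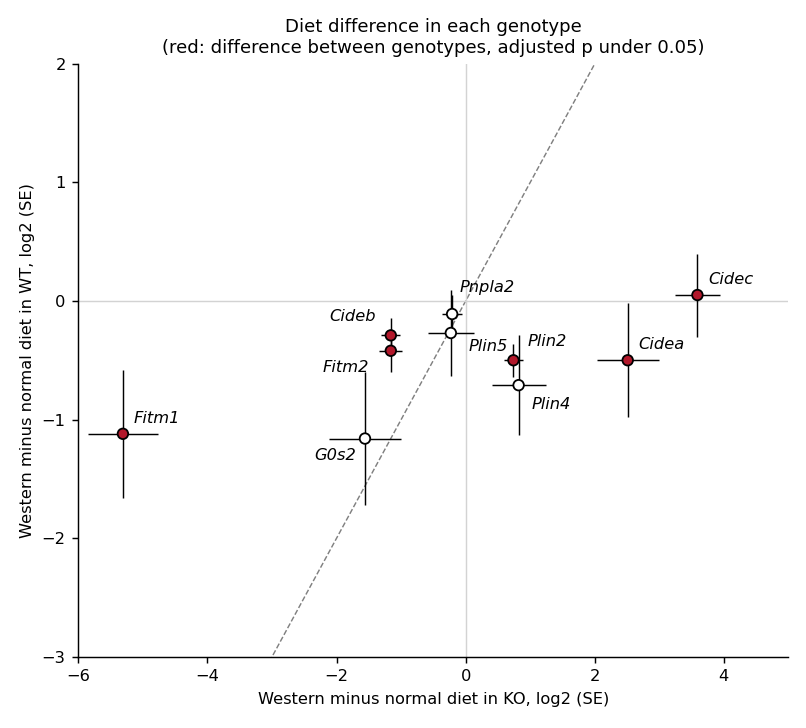
Log2 diet difference, Western minus normal, in KO (horizontal axis) against that in WT (vertical axis, shorter range), with SE, for the 10 genes. On the dashed line both are equal, and the 6 genes in red differ between the genotypes at an adjusted p under 0.05. Of all genes tested, 27.6% did so. In WT the values lie between -1.16 and 0.05 and in KO between -5.31 and 3.59.

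The spread of G0s2 and Plin5 within groups can be set beside the slide, a glass that carried up to 4 arrays and was scanned at 1 time. G0s2 was highest on slide 6 in KO mice on normal diet (14.1), in WT mice on Western diet (13.4) and in WT mice on normal diet (22.1), and on slide 4 in KO mice on Western diet (4.71). It was lowest on slide 3 in KO mice on Western diet (1.00), in WT mice on Western diet (1.89) and in WT mice on normal diet (5.62), but on slide 1 in KO mice on normal diet (2.49). Plin5 was highest in KO mice on normal diet on slides 6 and 4 (29.0 and 26.8), and in WT mice on Western diet on the same slides (24.2 and 17.5). In KO mice on Western diet it was highest on slides 4 and 1 (14.4 and 13.8), and in WT mice on normal diet on slides 5 and 2 (19.6 and 18.0), so the order of slides was not the same in all groups. What differed between slides, and its part in these values, was not tested. With the slide as a block, the G0s2 difference was -1.60 between KO and WT on Western diet (adjusted p = 0.00458) and -1.56 between Western and normal diet in KO (adjusted p = 0.00439), while Plin5 still passed no test. Over the deviations of the 20 arrays from their group means, G0s2 correlated with Fitm2 (Pearson r = 0.81) and with Plin5 (r = 0.77), Plin5 with Fitm2 (r = 0.77) and Plin4 with Plin5 (r = 0.76). These points share slides and RNA samples, and the correlations, chosen after the values had been seen, are a description.

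**Figure D4:**
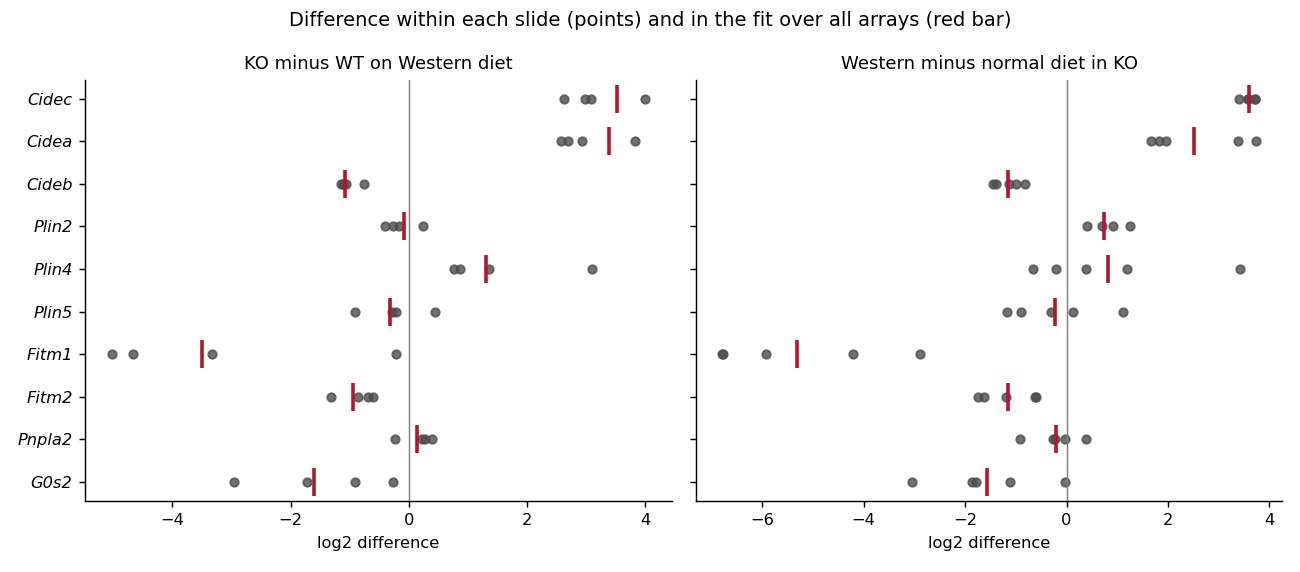
Log2 difference within each slide that held both groups (grey points) and in the fit over all arrays (red bars) for KO minus WT on Western diet (4 slides) and Western minus normal diet in KO (5 slides, 4 for Plin2). Cidec and Cidea are above 0 and Cideb, Fitm1, Fitm2 and G0s2 below 0 on every slide shown.

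The genes whose values followed Cidec most closely over the 20 arrays were Cacna1b (Pearson r = 0.957), Krt20 (r = 0.956), Rab11fip5 (r = 0.954) and Cd109 (r = 0.951), among 16997 genes. Cacna1b, Krt20 and Cd109 were well above background on 5 of 5 arrays of KO mice on Western diet and on none of the other 15. They passed the filter only through that group, in which Cidec was high, so their r rests on it and lends no support. Rab11fip5 averaged 1.60 on the log2 scale in KO mice on Western diet. It averaged -1.69 in WT on Western, -1.57 in KO on normal and -1.63 in WT on normal diet. Plin2 was followed most closely, over the 19 arrays on which it was measured, by Grk5 (r = 0.871), Thoc6 (r = 0.869), Crybg3 (r = 0.837) and Sh3pxd2a (r = 0.833). These are the closest of many genes over 4 groups and carry no test.

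Other genes of the droplet coat and surface were mostly lower in KO mice on Western diet. Of 18 tested, 13 were lower and 4 higher than in WT (median -0.78, against -0.16 over all genes), beside 32.7% lower and 25.0% higher of all genes. On normal diet, of 17 tested, 2 were lower and 2 higher (median -0.21), and of all genes 8.39% were lower and 11.3% higher. The 4 genes with the smallest adjusted p on Western diet were Hsd17b11, a droplet dehydrogenase (-1.44 ± 0.10), Ldah, a droplet hydrolase (-1.14 ± 0.11), Rab18, a small GTPase of droplets (-0.78 ± 0.07), and Hilpda, a hypoxia-inducible droplet protein that inhibits Pnpla2 (2.04 ± 0.21, adjusted p = 2.36e-07). Hilpda stood at a mean of 1.86 in KO on Western diet, -0.18 in WT on Western diet, -0.35 in KO on normal diet and -0.18 in WT on normal diet on the log2 scale. Its interaction was 2.22 ± 0.30 (adjusted p = 3.98e-05), and that of Hsd17b11 was -1.09 ± 0.14 (adjusted p = 1.81e-05). In WT mice Hsd17b11 was higher on Western diet by 0.79 ± 0.10 (adjusted p = 5.43e-05). With normexp 7 of the 18 genes were lower and 3 higher on Western diet, beside 24.5% of all genes called in either direction under that setting. Plin1, the perilipin of fat cells, was not tested because it was well above background on only 3 of the 20 arrays.

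Of the other neutral lipid hydrolases and their cofactors, 9 of 16 tested were lower and 1 higher in KO than in WT on Western diet (median -0.99), beside 32.7% lower and 25.0% higher of all genes, so that the share called in either direction is near the 57.7% of all genes. On normal diet 4 were lower and 2 higher (median -0.40), beside 8.39% lower and 11.3% higher of all genes. The strongest calls on Western diet were the liver esterases and lipases Aadac (-2.94 ± 0.18), Ces1f (-6.84 ± 0.50), Ces1d (-2.01 ± 0.17) and Lipc, hepatic lipase (-2.72 ± 0.23), with adjusted p up to 1.9e-08. On normal diet the carboxylesterase Ces1g was higher (1.70 ± 0.32, adjusted p = 0.00091), and lower were Aadac (-1.23 ± 0.18, adjusted p = 9.87e-05), Lipc (-0.80 ± 0.23, adjusted p = 0.0205) and Abhd5, the activator of Pnpla2 (-0.70 ± 0.17, adjusted p = 0.00733). Abhd5 was also lower in KO on Western diet (-1.05 ± 0.17, adjusted p = 4.15e-05), a value named after it had been seen. So on Western diet the activator and the inhibitor G0s2 were lower in KO, while Hilpda, also an inhibitor, was higher (2.04 ± 0.21). Pnpla2 did not pass the test, and the G0s2 call was lost with normexp (adjusted p = 0.0688). Lpl, lipoprotein lipase, was higher on Western than on normal diet in both genotypes, by 3.95 ± 0.32 in KO (adjusted p = 2.33e-08) and 4.6 ± 0.32 in WT (adjusted p = 2.22e-07). Nceh1, a cholesteryl ester hydrolase known from macrophages, was the 1 hydrolase higher in KO on Western diet (1.89 ± 0.24, adjusted p = 2.96e-06). This value was named after it had been seen. Nceh1 was lower on Western diet in WT (-1.02 ± 0.24, adjusted p = 0.0168), and its interaction was 2.20 ± 0.34 (adjusted p = 0.000141).

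Of the regulators known to act on droplet genes, 10 of 12 tested were lower and 2 higher in KO than in WT on Western diet (median -0.84), beside 32.7% lower and 25.0% higher of all genes, and 2 of the 10 lower ones were the deleted Nr1h3 and Nr1h2. With normexp 4 were lower and 1 higher, beside 24.5% of all genes called in either direction. In the deposited matrix values 7 were lower and 2 higher, beside 57.3% of all genes called. Srebf1, the lipogenic factor under LXR, was lower (-3.34 ± 0.23, adjusted p = 1.83e-09), and so was Mlxipl, the carbohydrate response factor (-1.85 ± 0.14, adjusted p = 4.13e-09). Pparg, the adipogenic nuclear receptor, was higher in KO on normal diet by 0.96 ± 0.24 (adjusted p = 0.00865) and lower on Western diet in WT (-1.01 ± 0.24, adjusted p = 0.0167). Its interaction was 1.54 ± 0.34 (adjusted p = 0.00246), and on Western diet it was higher in KO than in WT by 2.50 ± 0.24 (adjusted p = 8.93e-08), a value named after it had been seen. Ppara, the nuclear receptor of fatty acid oxidation, was lower on Western than on normal diet in KO (-1.72 ± 0.26, adjusted p = 2.09e-05).

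Of 16 PPAR alpha target genes, 11 were lower and 0 higher in KO than in WT on Western diet (median -1.06), beside 32.7% lower and 25.0% higher of all genes. On normal diet 1 was lower and 1 higher (median -0.17), beside 19.7% called of all genes. Among the strongest were Cyp4a10 (-4.45 ± 0.25), Ehhadh (-2.49 ± 0.26) and Acaa1b (-1.76 ± 0.20), enzymes of fatty acid oxidation, with adjusted p up to 5.56e-07. With normexp, 8 were lower, beside 24.5% of all genes called in either direction. With quantile normalization 10 were lower and 1 higher, beside 57.4% of all genes called. Of 7 tested PPAR gamma target genes of fatty liver and fat tissue, Aqp7, a glycerol channel, passed the filter only through KO mice on Western diet, the 1 group in which it was well above background, and is left out of the count. Of the other 6, 2 were higher and 1 lower in KO on Western diet, a share near or below the 57.7% of all genes. These 6 include Cfd, which passed the filter only through KO mice on normal diet and was not called here. Cfd was well above background on 0 of 5 arrays of KO mice and 1 of 5 of WT mice on Western diet. Fabp4, a fatty acid carrier (3.32 ± 0.19, adjusted p = 1.47e-10), and Cd36, a fatty acid translocase (2.40 ± 0.37, adjusted p = 2.4e-05), were higher. Acsl1, an acyl-CoA synthetase, was lower (-2.45 ± 0.24, adjusted p = 1.29e-07).

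**Figure D5:**
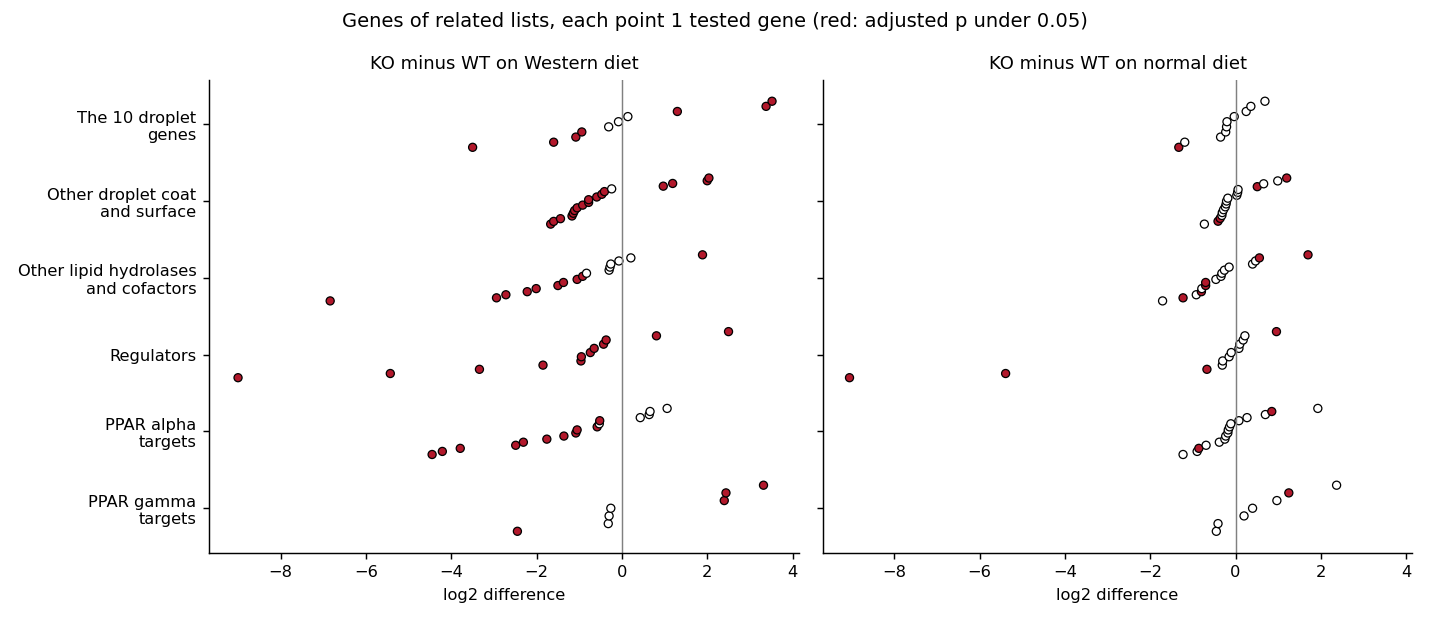
Log2 difference KO minus WT (horizontal axes) on Western diet (left) and normal diet (right) for the 10 genes and for 5 related gene lists, each point 1 tested gene, red at an adjusted p under 0.05. On Western diet 13 of 18 other coat genes, 9 of 16 hydrolases and 11 of 16 PPAR alpha targets are lower in KO. Of all genes tested, 32.7% are lower there and 57.7% are called in either direction.

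Markers of other cells differed between the groups, and in a whole-liver sample fewer cells of a type and less RNA per cell cannot be told apart. The summed signal of 10 macrophage markers was 299 to 328 times the 75th percentile in KO mice on Western diet, against 27.3 to 55.9 in WT mice on Western diet, 19.0 to 94.4 in KO mice on normal diet and 18.2 to 35.9 in WT mice on normal diet. Leaving out Mmp12, which passed the filter only through KO mice on Western diet, the other 9 were higher in KO than in WT on Western diet. Of all genes 25.0% were higher there. Cd68 was higher by 4.68 ± 0.35 (adjusted p = 4.01e-09). The 6 Kupffer cell markers summed to 1.30 to 3.54, against 24.3 to 103, 0.487 to 7.15 and 19.5 to 47.0 in the same order of groups, so they were low in KO on both diets, and 8 stellate cell markers to 65.8 to 156, against 9.79 to 53.2, 48.6 to 74.5 and 8.68 to 61.6. The 8 hepatocyte markers summed to 748 to 850, against 961 to 1210, 1100 to 1390 and 1110 to 1610. Of the 8, 7 were lower in KO than in WT on Western diet, beside 32.7% lower of all genes. Only 2 were lower with quantile normalization (and 1 higher), with normexp and in the deposited matrix values. Of all genes, 57.4%, 24.5% and 57.3% were called in either direction under these settings. The part of these cell markers in the results on the 10 genes was not tested. Of 6 adipocyte markers, Adipoq, Lep, Plin1, Retn, Cfd and Adrb3, 0 were well above background in any KO mouse on Western diet, in which Cidec and Cidea were highest (summed signal 0.0263 to 0.0735, against 0.0405 to 0.0979 in WT mice on Western diet, 0.152 to 0.318 in KO mice on normal diet and 0.0661 to 1.22 in WT mice on normal diet). The 5 skeletal muscle markers summed to 0.185 to 0.278 in KO mice on Western diet, in which Fitm1 was lowest, against 0.241 to 0.317, 0.237 to 0.329 and 0.297 to 0.379, with 1 to 4 of the 5 well above background. Of the 2 that were tested, Mylpf was lower in KO on Western diet (-0.86 ± 0.14, adjusted p = 3.52e-05). The other, Acta1, passed the filter only through KO mice on Western diet, so its values there are not read as a difference. It was well above background on 5 of 5 of these arrays and on 0 of 5 of WT mice on Western diet.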

How the data were processed

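RNA of 20 livers was hybridised to 20 single-colour Agilent arrays (mm8 design) on 6 slides, each scanned in 1 pass. The deposited signal is an intensity that the authors' Feature Extraction 9.5.3.1 had background-corrected and detrended, per the file headers. The authors' deposited series matrix holds log2 values of 24493 probes, and its normalization is not given in the sources used here. Feature Extraction 9.5 and limma are named in the submitters' processing notes.

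Each signal was divided by the 75th percentile of its array's non-control spots before log2 was taken. Outlier spots (105 to 270 per array) were dropped and repeated spots averaged, and a gene was read from its brightest probe. A gene entered the test if 4 of 5 arrays in some group had it well above background (17552 genes). limma 3.58.1 (R 4.3.3, data.table version 1.17.8) fitted 4 group means together, two-sided, with Benjamini-Hochberg adjustment within each of 5 comparisons at 0.05. The fit was tested on simulated data. The number of arrays, 5 a group, limits the precision. The labels do not say whether mice shared litters or cages.

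Alternatives were median scaling, quantile normalization, normexp (offset 50), the matrix values, no filter, a filter on all 20 arrays, the mean of all probes, outlier spots kept, slide and replicate blocks, the compared groups alone and each array left out. The other probe of Fitm2 and Pnpla2, and dim spots set to the lowest signal well above background for Fitm1, were added after seeing the data. From each list and comparison at most 4 called genes with the smallest adjusted p are named, and the 4 genes closest to Cidec and Plin2. A gene that this rule selects is not reported here. Exceptions, named after their values were seen, are Plin1, Abhd5, Pparg, Nceh1 on Western diet and the correlated pairs. The members and the lists were chosen with earlier results of these data known. Motifs were searched in RefSeq promoter windows (GRCm38.p6). Figures were drawn with Python 3.11.15, pandas 2.3.3 and matplotlib 3.10.9.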

Additional observations from a re-analysis of the deposited data

Results flagged for a closer look

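For 6 of the 10 genes the diet difference differed between KO and WT mice by a test of that difference in the limma fit. Of all genes, 27.6% did so (12.9% higher, 14.7% lower). KO minus WT, the diet difference was 3.55 for Cidec (adjusted p = 5.46e-05), 3.02 for Cidea (adjusted p = 0.00298), 1.24 for Plin2 (adjusted p = 0.000318), -0.87 for Cideb (adjusted p = 0.00474), -4.19 for Fitm1 (adjusted p = 0.000527), or -3.20 with dim spots at the lowest signal well above background, and -0.74 for Fitm2 (adjusted p = 0.0404). Cidec, Cidea and Plin2 were higher, and Cideb, Fitm1 and Fitm2 lower, on 3 of 3 slides that held all 4 groups. For Fitm1 the values were -5.74, -0.48 and -4.99 on slides 3, 4 and 6. Only on slide 4 of these was the Fitm1 spot of the KO mouse on Western diet well above background. Of 40 groups, 4 for each gene, 39 with 5 values and 1 with 4, 0 held a mouse that stood apart from the others by Dixon's criterion, which chance would meet in about 1 in 20 groups.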

How the results depend on the processing

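The counts of genes called stayed within 1.5 times the count reported under all settings, except in 2 comparisons. For diet in WT the 1 call, Plin2, became 0 with median scaling, quantile normalization, normexp, the matrix values, no filter, the mean of all probes, outlier spots kept, the slide block, the replicate block and the 2 groups alone, and it was 0 to 1 with single arrays left out. For the interaction 2 genes were called with normexp, against 6. With single arrays left out, 6 to 7 were called on Western diet and for diet in KO, 5 to 6 for the interaction and 1 on normal diet.

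These directions turned, and the cause was not tested. Plin2 KO minus WT on Western diet was 0.35 with quantile normalization, 0.16 with normexp and 0.39 in the matrix values. Pnpla2 on Western diet was -0.11 as the mean of its probes and -0.36 at the other probe. For diet in WT, Pnpla2 was 0.01 with median scaling and Cidec -0.09 with normexp. Plin5 for diet in KO was 0.01 with quantile normalization and 0.02 with normexp and in the matrix values. The interaction of Plin5 was -0.0044 with median scaling and -0.02 with the slide block, and that of Pnpla2 was 0.03 with quantile normalization, 0.20 with normexp and 0.04 in the matrix values. None of these values had been called as reported. With single arrays left out, Cidec ranged over -0.18 to 0.21 and Plin4 over -0.56 to 0.09 between genotypes on normal diet, Cidec over -0.10 to 0.28 for diet in WT, Plin5 over -0.50 to 0.05 for diet in KO, and the interactions of Plin5 over -0.22 to 0.32 and of Pnpla2 over -0.22 to 0.05.

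Over all genes, 2.90% were called on normal diet, 24.5% on Western diet, 0.832% for diet in WT, 20.3% for diet in KO and 5.78% for the interaction with normexp, and 12.8%, 2.99% and 17.5% on normal diet, for diet in WT and for the interaction with median scaling. Without a filter they were 10.6%, 2.80% and 15.1% in those comparisons and 33.4% for diet in KO. Of the calls for diet in WT 54.5% were higher, against 66.6% with median scaling and 43.8% with normexp, and of the interaction calls 46.7%, against 62.7% with normexp. Median scaling moved the median of all genes for diet in WT to 0.08, against -0.03. On Western diet and for diet in KO, the matrix values gave -1.07 and -2.25 for Fitm1, of which 3 arrays were not well above background.

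Only for diet in WT did every same-numbered pair of samples correlate positively (0.027 to 0.487). The correlations were -0.378 to -0.004 between genotypes on normal diet, -0.350 to 0.269 on Western diet and -0.041 to 0.452 for diet in KO. In the diet comparisons most such pairs shared a slide (4 of 5 in WT, 5 of 5 in KO), and 7 of 10 and 4 of 10 samples correlated best with their own number. With the replicate number as a block 1, 7, 0, 7 and 6 genes were called on normal diet, on Western diet, for diet in WT, for diet in KO and for the interaction.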
